A study of Myzus persicae with 8 samples.

Results

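Of the 43223 probes on a two-colour array of the peach-potato aphid Myzus persicae, 79 were well above background in clone FRC on none of 8 arrays and in clone 4106A on all 8, which is 0.183% of the probes. The scanner software sets the flag "well above background" for each spot and channel when the signal exceeds its background significantly and by a set margin. Probes with an outlier flag on any array were to be dropped, and none of the 79 had one. The 79 members lay on 76 parent sequences, the transcript fragments or assembled contigs from which the probes were designed. Of the members 32 lay on contigs and 47 (59.5%) on sequences with a read name in place of a contig name, against 70.6% with such a name among all probes. The members were chosen by these flags, so their levels and ratios are described here with no test.

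FRC is an insecticide-resistant clone from peach orchards in southern France, and 4106A is a susceptible clone from potatoes in Scotland. Each is a single parthenogenetic lineage founded by 1 female, kept on Chinese cabbage and left untreated. RNA came from 4 pools of each clone, each of 10 whole aphids aged 15 days, and FRC and 4106A pools that share a number were put on the same arrays. Both label orientations were used, with FRC in Cy5 on the 4 arrays of the first slide and in Cy3 on the 4 arrays of the second. With 1 lineage per clone, resistance, geographic origin, host of origin and other differences in genotype cannot be told apart. Probes annotated as a densovirus also read higher in FRC, and this difference between the clones cannot be told apart from the others. The RNA was from whole bodies, so fewer cells of a type and less RNA per cell cannot be told apart either.

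Aphids multiply without mating for many generations, so a clone carries its own combination of alleles, gene copies and transposable elements. Transposable elements are DNA stretches that move within a genome, either through an RNA copy, which needs reverse transcriptase, or by excision, which needs transposase. Glutathione S-transferases (GSTs) and UDP-glycosyltransferases are enzyme families that attach glutathione or a sugar to small molecules, and in insects both are known for the detoxification of plant compounds and insecticides.

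Each array held 45220 spots, of which 1997 were controls, and no probe was saturated. The number of probes detected by this flag was 28067 to 31791 per array in FRC, against 28336 to 30922 in 4106A. Across the 8 arrays, 26953 probes were always detected in each clone and 10430 never in either. The opposite pattern, FRC on all 8 arrays and 4106A on none, was shown by 36 probes. The probes detected in neither clone had a median normalized level of 6.42 to 6.43 in each of the 4 FRC pools and of 6.41 to 6.42 in each of the 4 4106A pools (log2 intensity), the background level on this scale.

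Since FRC was not well above background, the fold of a member is known only as a lower bound. It was computed once, in the same way for each member, by setting the mean 4106A level over the 4 pools against an FRC level taken on each array as the dimmest well-above-background FRC signal or, if brighter, the FRC signal of the probe itself. The members were at least 1.23-fold to at least 21.2-fold lower in FRC, with a median bound of 3.06-fold. The bounds rest on the floor chosen: with the floor at the 5th percentile of the detected FRC signals in place of the dimmest, the median was 1.99-fold, the highest 14.3-fold, 39 were over 2-fold, and 6 members had no fold left. The bounds of single members were then smaller too, for example 14.2-fold for 454Myzus_64848, 5.91-fold for contig7690 and 1.65-fold for contig7295. The bound was over 2-fold for 56 members, against 0.428% of all probes, over 4-fold for 32, over 8-fold for 18 and over 16-fold for 4. For the remaining 23 members it was 2-fold or less. Members on contigs had a median bound of 3.69-fold and members on the other sequences one of 2.55-fold. The 36 probes of the opposite pattern had a median bound of 2.51-fold and a highest of 36.9-fold, in the other direction. Their 4106A floor was 5.31 for pair 3 with FRC in Cy5 and 5.64 for pair 1 with FRC in Cy3 (log2 intensity). Both lie under the background level, whereas the FRC floors were 6.43 to 6.99. The 4106A floors of the other arrays were 6.48 to 6.89. How far the low floors loosen the bounds of the opposite pattern was not computed, so these bounds are not compared with those of the members. The rule fixes the sign of these values, so no test was made of them.

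**Figure D1:**
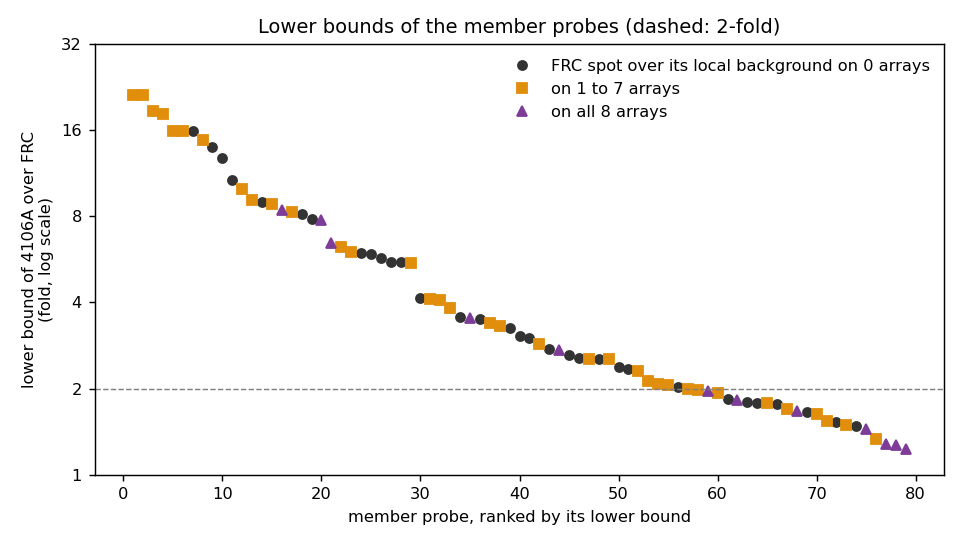
Lower bound of 4106A over FRC (vertical axis, fold, log scale) for the 79 member probes, ranked from largest to smallest (horizontal axis). Symbols give the number of arrays on which the FRC spot was significantly over its local background, and 56 points lie over the dashed line at 2-fold.

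The fitted log2 ratio of FRC over 4106A, in which 50 intensity units are added to each channel, had a median of -1.87 over the members and ranged from -4.54 to -0.30. The median over all probes was 0. The mean log2 level of a member lay between 6.24 and 6.99 in FRC (median 6.55), against 7.19 and 11.18 in 4106A (median 8.33). The ratio was negative in all 4 pairs of pools for 79 of 79 members, against 22.8% of all probes, and the 4 FRC pools lay below the 4 4106A pools for 79 of 79, against 9.8% of all probes. At a limma adjusted p under 0.05 and over 2-fold, 66 members were called lower in FRC, against 0.463% of all probes (200 of 43223). Because the members were picked on the same contrast, nothing is read from these counts. The other 13 had ratios under the 2-fold limit.

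A weaker flag of the software, a signal significantly over the local background with no margin, separated the members further. The FRC spot never carried it for 32 members, carried it on 1 to 7 arrays for 35, and carried it on all 8 arrays for 12. The median bounds of these sets were 3.16-fold, 3.38-fold and 1.89-fold. For the last 12 members a low FRC signal was thus recorded on each array, and "not detected" refers to the stricter flag only. Among the members named below, these were contig5214, contig6387, 454Myzus_81315, 454Myzus_81673, probe b of contig1109 and 454Myzus_80300.

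The members with the largest bounds carried no annotated function, apart from contig1215. The probe on 454Myzus_64848, a sequence without a description, had log2 levels of 6.61, 6.72, 6.66 and 6.69 in FRC pools 1 to 4, against 11.55, 11.44, 11.20 and 10.48 in 4106A pools 1 to 4. It was at least 21.2-fold lower in FRC, and pool 4 was the lowest of the 4106A pools. Before normalization its spots exceeded the local background by 15.0 to 57.0 intensity units in FRC (median 41.0 over 8 arrays), against 743.5 to 5230 units in 4106A (median 2629). The probe on 454Myzus_66234, of unknown function, had 6.64, 6.45, 6.85 and 6.62 in FRC, against 11.54, 11.52, 11.17 and 10.49 in 4106A, and was also at least 21.2-fold lower in FRC. The 2 sequences thus gave nearly the same profile over the 4106A pools, and FRC stayed near the background level in every pool.

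Both probes of contig1078, annotated as an unknown protein, were members. Its probe b had log2 levels of 6.63, 6.71, 7.03 and 6.66 in FRC, against 11.35, 11.18, 11.22 and 10.48 in 4106A, a bound of 18.7-fold. Its probe a had 6.91, 6.71, 6.96 and 6.64 in FRC, against 11.35, 11.16, 11.21 and 10.47 in 4106A, a bound of 18.2-fold. The probes of this contig gave the same order of the 4106A pools, again with pool 4 lowest.

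A further 3 undescribed sequences followed. The probe on 454Myzus_22384 had log2 levels of 6.62, 6.49, 6.96 and 6.76 in FRC, against 10.87, 10.71, 10.78 and 10.81 in 4106A, and was at least 15.9-fold lower in FRC. The probe on contig4251 had 6.45, 6.42, 6.75 and 6.65 in FRC, against 10.24, 10.96, 10.19 and 11.57 in 4106A, at least 15.8-fold lower in FRC. The probe on contig6991 had 6.32, 6.50, 6.87 and 6.57 in FRC, against 10.68, 10.61, 10.54 and 10.72 in 4106A, at least 14.8-fold lower in FRC. Contig4251 varied between 4106A pools more than the other probes named in this paragraph, with pool 4 highest, and no FRC pool of these probes came within 3 log2 units of a 4106A pool.

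**Figure D2:**
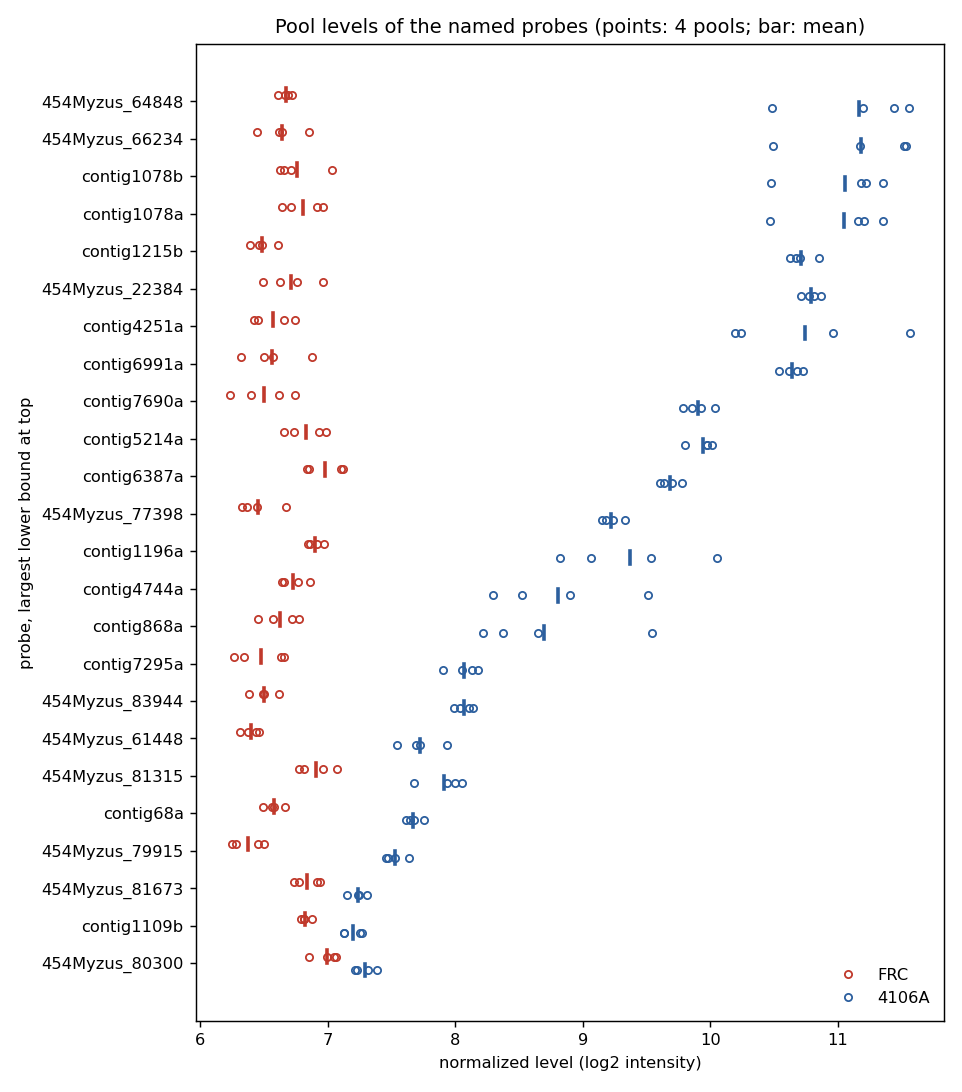
Normalized log2 intensity (horizontal axis) of the 24 named member probes, with the largest lower bound at the top. Circles are the 4 pools of FRC (upper, red) and of 4106A (lower, blue), bars are their means, and for each probe all FRC circles lie left of all 4106A circles; levels can be compared within a probe only.

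Function could be given for few members. The study's annotation of its differing transcripts described 40 of the 79, of which 26 were called unknown, hypothetical or the like, and 14 named a function or a similar gene. That list was drawn up from these same samples, so it is not independent evidence of any direction. Of the 76 parent names, 0 matched the RefSeq gene table of the species, and no further names were assigned.

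Of the 14 named members, 7 fell in the list of transposable elements and the THAP family, a group of DNA-binding proteins related to transposases. This list matched 9 annotated probes on the array, of which 7 were called lower in FRC and 1 higher, and all 7 of the lower ones were members. The median log2 ratio of the 9 was -1.15, against 0 over all probes, and the annotation covers only transcripts that the study had picked as different. The list's terms were chosen with earlier results known, and they include the name of a particular locus that only the member 454Myzus_77398 matched. Nothing is therefore read from these counts. The probe on contig7690, similar to the reverse transcriptase of transposon BS, had log2 levels of 6.39, 6.24, 6.74 and 6.62 in FRC, against 10.04, 9.86, 9.78 and 9.93 in 4106A. It was at least 8.99-fold lower in FRC. The probe on contig6387, similar to a transposase, had 6.85, 6.84, 7.10 and 7.12 in FRC, against 9.77, 9.61, 9.64 and 9.70 in 4106A, at least 6.47-fold lower in FRC. In both the 4106A pools lay close together and far above every FRC pool. The spots of contig7690 exceeded the local background by 26.0 to 38.5 intensity units in FRC (median 34.8), against 593.5 to 1737 units in 4106A (median 1073).

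The probe on 454Myzus_77398, similar to a pea aphid open reading frame that the list counts with the elements, had log2 levels of 6.32, 6.44, 6.67 and 6.36 in FRC, against 9.33, 9.18, 9.15 and 9.24 in 4106A, at least 5.70-fold lower in FRC. The probe on contig7295, similar to P52rIPK (THAP domain protein 0, known in mammals as a regulator of a protein kinase pathway), had 6.26, 6.34, 6.65 and 6.64 in FRC, against 8.18, 8.05, 7.91 and 8.13 in 4106A, at least 2.56-fold lower in FRC. Both had their highest FRC level in pool 3, without reaching the lowest 4106A pool.

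The remaining 3 of this group had bounds under 2-fold. The probe on 454Myzus_81315, similar to a protein of the NOF-FB element, had log2 levels of 6.81, 6.77, 7.08 and 6.97 in FRC, against 8.05, 8.00, 7.93 and 7.68 in 4106A, a bound of 1.96-fold. Probe a of contig68, similar to THAP domain containing 9, had 6.58, 6.49, 6.66 and 6.56 in FRC, against 7.75, 7.65, 7.67 and 7.61 in 4106A, a bound of 1.94-fold. The probe on 454Myzus_79915, similar to the reverse transcriptase of the X-element, had 6.28, 6.25, 6.50 and 6.45 in FRC, against 7.64, 7.46, 7.47 and 7.53 in 4106A, a bound of 1.76-fold. These were dim in 4106A as well, which limits the bound. The pools of the clones did not overlap, as for all 79 members, which were chosen on this contrast (9.8% of all probes).

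The other 2 annotated probes of the list had ratios of the opposite sign. A second NOF-FB sequence, contig5524, was well above background in FRC on all 8 arrays and in 4106A on none, with a log2 ratio of 0.86 ± 0.02 (SD, n = 4 pairs), under the 2-fold limit. A gag-pol sequence, 454Myzus_29882, which would encode the structural proteins and enzymes of a retroelement, was detected in both clones on all 8 arrays and had a log2 ratio of 3.71 ± 0.19 (SD, n = 4 pairs).

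The list of detoxification and conjugation enzymes held 45 annotated probes, of which 13 were called lower in FRC and 29 higher, and 3 of the lower ones were members. Over all 43223 probes, 200 were called lower and 393 higher. The annotation covers only transcripts that the study had picked as different, so nothing is read from these counts. All 3 members were conjugation enzymes, and no cytochrome P450, esterase or other annotated probe of the list was a member. Probe a of contig1196, similar to a GST, had log2 levels of 6.86, 6.91, 6.85 and 6.97 in FRC, against 9.06, 9.53, 8.82 and 10.05 in 4106A, at least 5.48-fold lower in FRC. The probe on contig4744 carried the same GST description, which does not show that it reads the same gene. It had 6.65, 6.64, 6.86 and 6.77 in FRC, against 8.53, 8.90, 8.30 and 9.51 in 4106A, at least 4.08-fold lower in FRC. The 4106A pools differed from each other more than for the transposable elements, in the order pool 3, 1, 2, 4 from low to high for both GST sequences.

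Probe a of contig868, similar to glucosyl or glucuronosyl transferases, had log2 levels of 6.45, 6.57, 6.72 and 6.77 in FRC, against 8.37, 8.65, 8.21 and 9.54 in 4106A, at least 3.82-fold lower in FRC. Probe b of the same contig, also a member, had 6.26, 6.30, 6.51 and 6.39 in FRC, against 8.23, 8.52, 7.99 and 9.34 in 4106A, at least 3.51-fold lower in FRC. The 4106A pools of both probes followed the order given for the GSTs. Other sequences with the same annotation were detected in FRC. A second transferase sequence, contig8414, was detected in both clones on all 8 arrays with a log2 ratio of -3.03 ± 0.54, and another GST sequence, contig3513, was detected in both with a log2 ratio of 1.54 ± 0.53 (SD, n = 4 pairs each). A differently described GST sequence, contig781, was detected in 4106A on all 8 arrays and in FRC on 3. Its log2 ratio was -0.765 ± 0.076 (SD, n = 4 pairs). Of the other 5 probes annotated as glucosyl or glucuronosyl transferases, 4 were called higher in FRC, with log2 ratios of 1.26 to 1.59 (454Myzus_25768 lowest, 454Myzus_21503 highest), and 454Myzus_23328 had a ratio of 0.88 ± 0.11. A UDP-glycosyltransferase sequence, contig3328, was called higher at 1.64 ± 0.38 (SD, n = 4 pairs).

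A further 4 members had other named matches. Probe b of contig1215, matched to a fatty acid synthase of the mosquito Aedes aegypti, the enzyme that builds long-chain fatty acids, had log2 levels of 6.46, 6.39, 6.61 and 6.48 in FRC, against 10.85, 10.70, 10.67 and 10.62 in 4106A, at least 15.9-fold lower in FRC. The probe on contig5214, similar to AGAP004142, a mosquito gene model, had 6.66, 6.74, 6.99 and 6.93 in FRC, against 10.01, 9.98, 9.80 and 9.97 in 4106A, at least 8.44-fold lower in FRC. In both the 4106A pools agreed to within 0.3 log2 units. The probe on 454Myzus_83944, similar to the 135 kDa subunit of RNA polymerase I, which transcribes ribosomal RNA genes, had 6.38, 6.49, 6.61 and 6.50 in FRC, against 8.14, 8.03, 7.99 and 8.11 in 4106A, at least 2.55-fold lower in FRC. The probe on 454Myzus_61448, similar to F57G4.9, a nematode gene model, had 6.37, 6.31, 6.46 and 6.44 in FRC, against 7.93, 7.69, 7.73 and 7.54 in 4106A, at least 2.02-fold lower in FRC. Only these pools are at hand for either sequence, and neither had a second probe.

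No member was annotated as a cuticle protein (8 annotated probes, 7 called lower in FRC). None was annotated as a saliva protein (8 probes, 2 lower and 5 higher) or a protein folding factor (2 probes, both lower). None was annotated as RNA of a virus or symbiont (18 probes, all higher). All 18 carried the name of a densovirus of M. persicae, with a median log2 ratio of 6.68. Over all 43223 probes, 200 were called lower and 393 higher. The annotation covers only transcripts that the study had picked as different, so nothing is read from these counts.

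Of the 76 parent sequences, 69 had a single probe and 7 had 2, so a second probe of the same parent name was at hand in 7 cases. Where on the parent sequence these probes lie was not examined. In 3 of these, contig1078, contig868 and contig68, both probes were members. Probe b of contig68 had log2 levels of 6.32, 6.41, 6.62 and 6.42 in FRC, against 7.75, 7.58, 7.46 and 7.43 in 4106A, and its bound of 1.80-fold was close to the 1.94-fold of probe a. The ratios of paired probes of these 3 contigs overlapped over the pairs of pools.

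In 2 cases the other probe was well above background in FRC on all 8 arrays. Probe a of contig1215, annotated with the Drosophila gene name v(2)k05816, had log2 levels of 8.96, 8.80, 9.06 and 8.83 in FRC, against 10.37, 10.15, 10.37 and 10.20 in 4106A. Its log2 ratio was -1.36 ± 0.04 (SD, n = 4 pairs), and the member, probe b, was at least 15.9-fold lower in FRC (10.3-fold with the 5th percentile floor). Probe b of contig1196 had 10.77, 10.84, 10.43 and 10.69 in FRC, against 11.68, 12.07, 11.60 and 13.06 in 4106A, with a log2 ratio of -1.42 ± 0.65 (SD, n = 4 pairs), and the member, probe a, was at least 5.48-fold lower in FRC (4.08-fold with the 5th percentile floor). For contig1215 and contig1196, the other probe of the same parent name thus gave a detected signal in FRC, lower than in 4106A in each pair.

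Contig797 was a milder case of the same kind. Its member, probe a, had log2 levels of 6.40, 6.46, 6.74 and 6.47 in FRC, against 9.85, 9.61, 9.68 and 9.64 in 4106A, at least 7.86-fold lower in FRC. Probe b was well above background in FRC on 7 of 8 arrays, and had 7.46, 7.41, 7.79 and 7.50 in FRC, against 9.63, 9.60, 9.79 and 9.64 in 4106A. The log2 ratio of probe b was -2.13 ± 0.08 (SD, n = 4 pairs). For the last discordant parent, contig1109, the member was probe b, and probe a was not well above background in either clone on any array. Whether the clones differ in sequence under any of these probes was not tested. For the 69 parents with a single probe, no second probe of the same parent name exists on the array. Whether another parent sequence reads the same transcript was not tested.

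**Figure D3:**
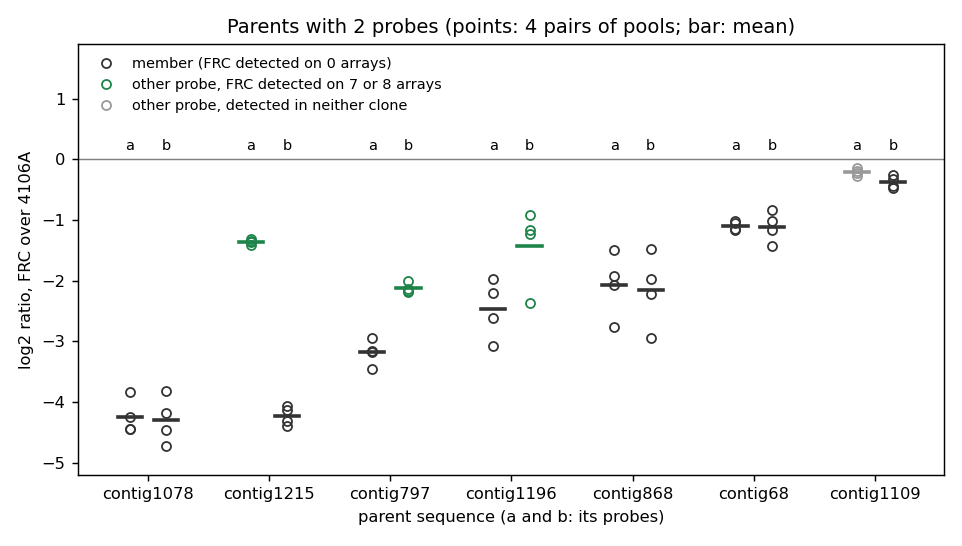
Log2 ratio of FRC over 4106A (vertical axis) for both probes of the 7 parent sequences with 2 probes. Circles are the 4 pairs of pools and bars their means; the probes of contig1078, contig868 and contig68 overlap, and the probes detected in FRC (green) have means of -1.36, -2.13 and -1.42. Ratios of members (black) are drawn as fitted with the offset of 50 and are not measured folds, since FRC was not well above background.

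At the edge of the rule the values ran into each other. The 3 members with the smallest bounds had no description. The probe on 454Myzus_81673 had log2 levels of 6.74, 6.77, 6.94 and 6.91 in FRC, against 7.15, 7.24, 7.24 and 7.31 in 4106A, a bound of 1.28-fold. Probe b of contig1109 had 6.81, 6.81, 6.87 and 6.79 in FRC, against 7.25, 7.13, 7.13 and 7.27 in 4106A, a bound of 1.27-fold. The probe on 454Myzus_80300 had 6.86, 7.05, 6.99 and 7.06 in FRC, against 7.21, 7.32, 7.23 and 7.39 in 4106A, a bound of 1.23-fold. The spots of the last exceeded the local background by 50.5 to 85.5 intensity units in FRC (median 70.2), against 82.5 to 161.5 units in 4106A (median 111.5), so that the ranges over arrays overlapped before the arrays were normalized and paired. These 3 members were dim in both clones and were admitted by small differences in signal.

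Just outside, 24 probes missed the rule by 1 of their 16 flags, 12 through an FRC flag and 12 through a 4106A flag. Their median log2 ratio was -0.56, and 8 were called lower in FRC, against 0.463% of all probes. They too were picked by flags of this contrast, so nothing is read from this count. The 3 of the 24 with the most negative ratios are given here. Contig5077, a hypothetical protein well above background in FRC on 1 array, had log2 levels of 6.65, 6.67, 7.02 and 6.74 in FRC, against 10.13, 9.97, 10.03 and 10.13 in 4106A. Contig6933, similar to otoferlin, in vertebrates a membrane protein of hair cell synapses, had 6.84, 6.34, 6.83 and 6.62 in FRC, against 8.61, 8.32, 8.31 and 8.48 in 4106A. The probe on 454Myzus_70139, of unknown function, had 6.80, 6.91, 6.90 and 6.83 in FRC, against 8.36, 8.30, 8.21 and 8.26 in 4106A. Their log2 ratios were -3.29, -1.77 and -1.42. Most of the 24 differed little, with a median bound of 1.39-fold and a bound at or under 2-fold in 19.

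Label orientation moved the count of members far more than their ratios. On the slide with FRC in Cy5, a mean of 71.6% of the probes was detected in FRC and of 67.6% in 4106A, and 81 probes met the rule on its 4 arrays alone. On the slide with FRC in Cy3, the values were 66.1% in FRC and 71.3% in 4106A, and 895 probes met it. Of the 816 that were not members, 472 were well above background in FRC on all 4 Cy5 arrays. The median log2 ratio of all 816 was -0.05. The arrays with FRC in Cy5 therefore set which probes were members. The median log2 ratio of the members was -2.00 with FRC in Cy5 and -1.71 with FRC in Cy3, and 78 of 79 were negative on all 8 arrays, with the other negative on 6. Each orientation was hybridised on a slide of its own, so slide and label cannot be told apart.

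The pairs of pools differed in how far apart the clones were. The median log2 ratio of the members was -1.92, -1.88, -1.49 and -1.96 in pairs 1 to 4, and pair 3 gave the smallest difference for 63 of 79 members and pair 4 for the other 16. The FRC level was highest in pool 3 for 56 members, and the 4106A level was lowest in pool 3 for 44. Among the 134 non-members called lower in FRC, pair 3 gave the smallest difference for 40, and the medians lay between -1.30 and -1.25. Among the 36 probes of the opposite pattern, pair 3 gave the smallest difference for 21, against 2, 6 and 7 for pairs 1, 2 and 4. Without pair 3 the median bound of the members was 3.29-fold, against 3.06-fold with it.

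The 4106A pools themselves agreed closely for most members and parted for a few. The SD of the log2 level over the 4 FRC pools was 0.03 to 0.24, with a median of 0.12, and over the 4 4106A pools it was 0.04 to 0.66, with a median of 0.11. An SD of 0.3 was placed, after the values were seen, in a gap of the members' own SDs between 0.22 and 0.36. It set 16 members on 14 parents apart. These were 20.3% of the members, against 4.68% of the 27914 probes detected in 4106A on all 8 arrays. Because the cut was fitted to the members, nothing is read from these shares. In all 16 it was 4106A pool 4 that stood off. It was highest in 10, by 0.92 to 1.13 log2 units over the mean of the other pools, among them both probes of contig868, both GST members and contig4251. It was lowest in 6, with differences of -0.92 to -0.71 log2 units from the other pools, namely both probes of contig1078 and the probes on 454Myzus_64848, 454Myzus_66234, 454Myzus_55785 and 454Myzus_82362.

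In FRC pool 4 of these 16 members differed from the other pools by -0.01 to 0.32 log2 units in the first set and by -0.22 to 0.03 in the second. The shift of the 4106A pool was read in both labels. It was at least 0.99 in Cy3 and 0.77 in Cy5 in the members where it was highest, and at or below -0.60 in Cy3 and -0.79 in Cy5 in those where it was lowest. Of all 1305 probes over this SD, 4106A pool 4 was highest in 376 and lowest in 643. Leaving out pair 4 changed no bound by more than 1.22-fold. Probe b of contig1196 and the probe on contig8414, which are no members but share the GST and transferase annotations, were also highest in 4106A pool 4, at 13.06 and 11.67 log2 units. So was the probe on contig3513, a GST sequence called higher in FRC, at 10.70 log2 units.

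**Figure D4:**
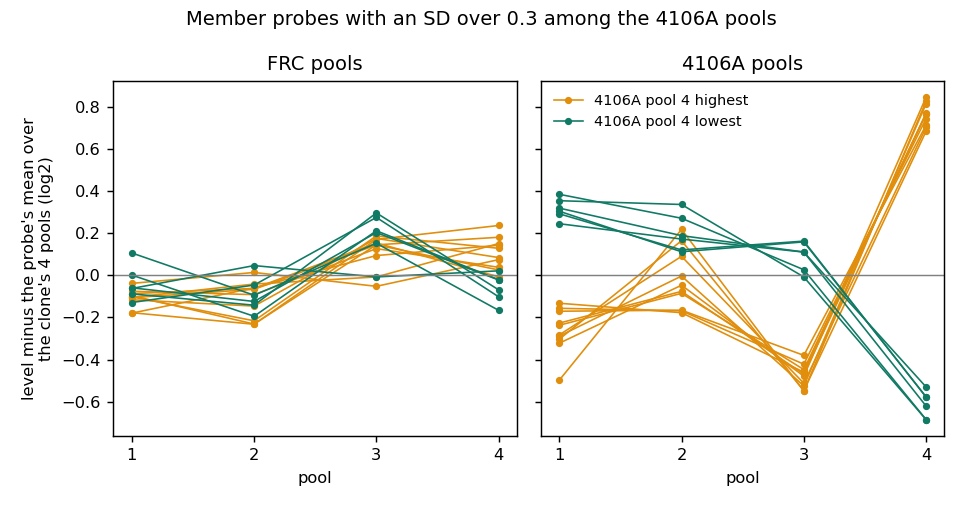
Deviation of each pool from the probe's mean over the 4 pools of its clone (vertical axis, log2) for the 16 member probes with an SD over 0.3 among the 4106A pools, in FRC (left) and 4106A (right), by pool number (horizontal axis, which has no order). Orange lines are the 10 members with 4106A pool 4 highest and green lines the 6 with it lowest; lines join the values of 1 probe.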

How the data were processed

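The arrays were scanned and quantified by the authors with Agilent Feature Extraction 10.5.1.1. The deposited files give the median spot intensity and local background intensity per channel, detection flags, processed signals and a log10 ratio, and the deposited series matrix holds the same log10 ratio as FRC over 4106A. Intensities were corrected with normexp (offset 50), normalized by loess within arrays (control and outlier spots at weight 0), and separate channels by Aquantile. The log2 ratios of a pair's arrays were averaged over orientations (n = 4 pairs) and fitted by lmFit and eBayes of limma 3.58.1 under R 4.3.3 (Benjamini-Hochberg over all probes, adjusted p under 0.05 and over 2-fold). The number of arrays limits the precision. The steps were tested on simulated data, with changes placed only in bright probes and a simplified detection flag. The bounds were thus not tested near the background level, where they are used.

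Pools are paired by hybridisation. Same-numbered pools deviated together (r = 0.30 to 0.59), which shared arrays alone can give. Whether pools of a clone were separate cultures is not stated, so the spread may be technical.

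The members and lists were chosen with earlier results of these data known. Named were members with a described function, the 8 largest and 3 smallest bounds, members with another probe detected in FRC, and the 3 most negative near misses. Probes named beyond this rule (contig8414, contig3513, contig3328, further transferase sequences, contig797, contig5524, 454Myzus_29882, 454Myzus_55785, 454Myzus_82362 and second probes of contigs) were added with their values known. SAM, which the methods used, rests on permutations and was not run. Probe sequences were not used here.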

Additional observations from a re-analysis of the deposited data

How the results depend on the processing

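The 29 named probes stayed negative without the offset, with processed signals and without each replicate. By orientation, 454Myzus_80300 had -0.61 with FRC in Cy5 and 0.01 with FRC in Cy3. The median log2 ratio of the members became -2.99 without the offset of 50, and -4.38 both with the software's processed signals and with the series matrix, against -1.87. An offset pulls ratios of dim spots towards 0 by construction, and none of these settings adds it. The probes called lower in FRC numbered 409 with processed signals, 387 with the series matrix and 5388 without the fold limit, against 200. Members numbered 895 with FRC in Cy3 alone. The cause of the larger counts, other than the dropped fold limit, was not tested. Under the flag without a margin 60 probes met the rule, 32 of them shared, and 1 other probe on their parents was detected in FRC, against 2. Relaxing the rule by 1 flag in either clone gave 91 probes.

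Leaving out each replicate gave 81 to 90 members (which ask fewer flags), 55 to 59 bounds over 2-fold, 64 to 67 members and 188 to 214 probes called lower, medians of -1.99 to -1.83 and 2 to 3 other probes. Without the replicate block (an unpaired fit) 66 members and 199 probes were called, and with slide as a term and pair as a random block 66 and 200. With the floor at the 5th percentile of detected signals, instead of the dimmest, 39 bounds were over 2-fold, 6 were under 1 (no fold then), and the median was 1.99-fold. The median was 5.13-fold without the offset and 6.00-fold with processed signals. Signal over background in FRC limits each bound. Single probes cannot show whether a transcript or only its probed stretch is missing.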
